A study of Mus musculus with 2 samples.

Results

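The integrated stress response genes are 10 mouse genes: Trib3, Asns, Atf4, Atf5, Ddit3, Chac1, Sesn2, Ddit4, Slc7a11 and Bcat1. They were taken by symbol from the 32285 genes listed for both libraries of the series, and all 10 were found. The set was chosen by the KO to WT ratios of Trib3 and Asns in these same libraries, to which known companions in the pathway were added. Every KO to WT difference of a member is therefore given as a description.

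The series holds YFP+ cells sorted from the spleens of 7-day-old C57BL/6J mice, with 1 single-cell RNA-Seq library of WT mice and 1 of KO mice. The genotype of the KO mice is Zfp335fl/flFoxp3-Cre, so that Cre, made as a YFP fusion from the Foxp3 locus, deletes the floxed Zfp335 alleles in Tregs. WT is the only genotype that the labels give for the controls. In the study's methods, WT mice carry Foxp3-driven Cre without the floxed alleles, so the YFP-Cre allele is shared by both groups. The labels give the sort as YFP+7AAD-, and the study's methods add a CD4+ gate, which should have removed erythroid, neutrophil, myeloid and B cells. Cells with the markers of those lineages were present in both libraries all the same. How many mice were pooled in a library is not stated. Cells under 300 genes or over 5% mitochondrial transcripts were left out, leaving 8053 of 14524 cells in WT and 13767 of 18134 in KO. Since each genotype has a single library, replicates are lacking and no test between genotypes was run. The 95% intervals given here cover counting error only. Levels are unique molecular identifiers (UMIs, 1 per captured transcript end) scaled to a total of 1000000 UMIs for the class and library, abbreviated CPM. They are not scaled by transcript length because the assay counts 1 end of each transcript.

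The integrated stress response is a pathway in which kinases that sense amino acid shortage, misfolded protein, heme shortage, mitochondrial damage or viral RNA phosphorylate the translation factor eIF2α. General translation slows, while ATF4 mRNA is translated more, and ATF4 then drives genes for amino acid synthesis, amino acid import and redox balance. Since ATF4 is controlled mainly at translation, the mRNA of its targets is a common readout. In T cells the pathway is known for its part in sensing amino acid supply during activation.

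Facts of both libraries that touch these genes were as follows. The kept WT cells held 54204367 UMIs and the kept KO cells 57649800, with medians of 5061 and 2713 UMIs per cell. The deleted gene bears on the labels. In T-lineage cells Zfp335 (chromosome 2, 164891882 to 164911757, minus strand, GRCm38) was at 8.18 CPM in WT and 0.764 CPM in KO, a ratio of 0.0935 (0.0658 to 0.130). Its ratio was 0.501 (0.270 to 0.898) over the other lineages, and 0.225 (0.0415 to 0.806) in erythroid-like cells, from 14 WT and 3 KO UMIs. Whether Zfp335 was deleted outside T cells was not tested. The libraries shared 70 cell barcodes, of which 29 were kept in both. T-lineage clusters, taken by the mean level of 9 T cell genes, held 7513 WT and 12986 KO cells. They include 3 clusters led by genes of other lineages: cluster 2 (992 WT and 3402 KO cells), cluster 7 (20 and 1312) and cluster 15 (44 and 8). Cluster 10 (120 and 289) also had hemoglobin genes among its 10 leading genes. None of the 9 T cell genes was among the 10 leading genes of any T-lineage cluster. Clusters 2, 7 and 10 held more cells in KO. Foxp3 was at 40.7 CPM in WT and 44.4 CPM in KO in the T-lineage cells. RNA of other lineages was also present there. The summed level of the 10 erythroid markers was 545 CPM in WT and 3278 CPM in KO, and that of the 9 neutrophil markers was 316 and 782 CPM. Klf1, which encodes an erythroid transcription factor, was at 1.16 and 1.89 CPM there. In the erythroid-like cells the erythroid markers summed to 157258 and 291594 CPM, and in the neutrophil-like cells the neutrophil markers summed to 305234 and 265297 CPM. The part of this RNA in the levels below was not tested. Without the clusters that were given no name, where the erythroid sums were 443 and 968 CPM, the KO to WT ratio of Trib3 was 6.40 (4.89 to 8.50). Less RNA per cell and fewer cells of a type cannot be told apart in a summed level over several clusters.

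Promoter windows are shown for the 4 members that hold a CARE-type motif, the kind of C/EBP-ATF site that ATF4 is known to bind, since these are the members for which the sequence bears on the group. The windows run from 250 bases before to 50 bases after the RefSeq start (GRCm38.p6), and the motif searched was TGATGNAA on both strands, so that its other strand reads TTNCATCA. Of 32851 such windows of the mouse genome, 1304 (3.97%) held it, among them windows of Chac1, Slc7a11, Asns and Trib3. The windows of the other 6 members, Atf4, Atf5, Ddit3, Sesn2, Ddit4 and Bcat1, did not hold these letters, which says nothing about other sites. The motif of Asns, the gene of asparagine synthetase, began 23 bases before the start. The window of Slc7a11 held 2 motifs, beginning 66 and 47 bases before the start on opposite strands. That of Chac1 began 193 bases before the start, and that of Trib3 began at base 15 of the RefSeq transcript. Each run below is written 5′ to 3′ on the strand of its gene, with the motif in capitals, for Asns at chr6:7693210-7693459 (minus strand), Slc7a11 at chr3:50443614-50443863 (minus strand), Chac1 at chr2:119350992-119351241 (plus strand) and Trib3 at chr2:152344031-152344280 (minus strand). The first 3 end at the base before the start, and the run of Trib3 ends 30 bases after it.
Asns: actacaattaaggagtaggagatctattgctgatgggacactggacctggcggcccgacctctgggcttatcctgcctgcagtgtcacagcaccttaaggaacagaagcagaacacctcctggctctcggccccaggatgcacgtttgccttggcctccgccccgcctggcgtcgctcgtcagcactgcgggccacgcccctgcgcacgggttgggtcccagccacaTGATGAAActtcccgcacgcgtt
Slc7a11: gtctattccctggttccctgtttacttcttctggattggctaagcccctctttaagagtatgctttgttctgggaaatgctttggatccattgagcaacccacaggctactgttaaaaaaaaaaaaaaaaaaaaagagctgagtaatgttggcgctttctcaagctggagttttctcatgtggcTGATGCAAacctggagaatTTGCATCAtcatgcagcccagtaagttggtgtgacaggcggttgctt
Chac1: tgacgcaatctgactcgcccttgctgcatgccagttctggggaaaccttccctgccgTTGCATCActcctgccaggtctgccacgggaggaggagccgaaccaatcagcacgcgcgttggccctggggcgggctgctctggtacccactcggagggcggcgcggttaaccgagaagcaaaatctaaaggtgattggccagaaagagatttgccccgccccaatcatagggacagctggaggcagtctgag
Trib3: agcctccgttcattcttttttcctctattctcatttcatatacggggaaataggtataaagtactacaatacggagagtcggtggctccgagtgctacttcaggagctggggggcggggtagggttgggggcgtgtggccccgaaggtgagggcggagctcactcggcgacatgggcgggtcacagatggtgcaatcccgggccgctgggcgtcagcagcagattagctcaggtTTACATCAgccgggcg
A match is a description of these letters and not a bound site. In the counts that follow, a gene is counted when any of its windows holds the motif, whereas the share given above is of windows. In the other lists described below, 5 of 14 genes with a window in the aminoacyl-tRNA synthetase list held the motif (Aars, Gars, Iars, Tars and Yars). So did 3 of 14 other ATF4-linked genes, 2 of 5 partner factors (Atf3 and Jdp2) and 1 of 5 amino acid transporters. Of serine, one-carbon and proline synthesis genes it was 1 of 10, and of eIF2 and eIF2B subunits 1 of 7. The p53 target list had 0 of 16 and the endoplasmic reticulum chaperone list 1 of 17 (Herpud1). The kinase, phosphatase and mitochondrial lists had 0. Of the 5 synthetase genes only Yars was 1.5-fold or more higher in KO T-lineage cells, and Jdp2 was lower.

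In T-lineage cells the KO to WT ratios of all 10 members were above 1, with that of Ddit4 the lowest, at 1.12. Of the 10 members, 9 had at least 50 UMIs over both libraries, and 8 of these were 1.5-fold or more higher in KO. Ddit4 stayed under this limit, and Slc7a11 had too few UMIs to be counted. Chac1 reached 50 UMIs only through the KO library, so its place in this count is partly set by the minimum. The same can hold for genes in the counts by state and by list below. Of all 12212 genes with at least 50 UMIs in these cells, 6.21% were 1.5-fold or more higher in KO and 12.3% were 1.5-fold or more lower, the latter including no member. The median log2 KO to WT ratio was 0.91 over the 9 counted members, and -0.07 over all genes with at least 50 UMIs. With the uncounted Slc7a11 included, the median of all 10 members was 1.28, with medians of the members' lower and upper bounds of 0.88 and 1.47. The members were selected on this contrast, so nothing follows from the size of the count. The count also depended on the processing. After thinning to 1000 UMIs it was 4, with Atf4 at 1.46, Ddit3 at 1.31 and Sesn2 at 1.42 and with too few UMIs of Chac1, and Atf5 was at 2.19. With the mean of single-cell CPM it was 6, with Atf4 at 1.43 and Sesn2 at 1.40. Without the clusters that were given no name it was 7, with Bcat1 at 1.48.

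**Figure D1:**
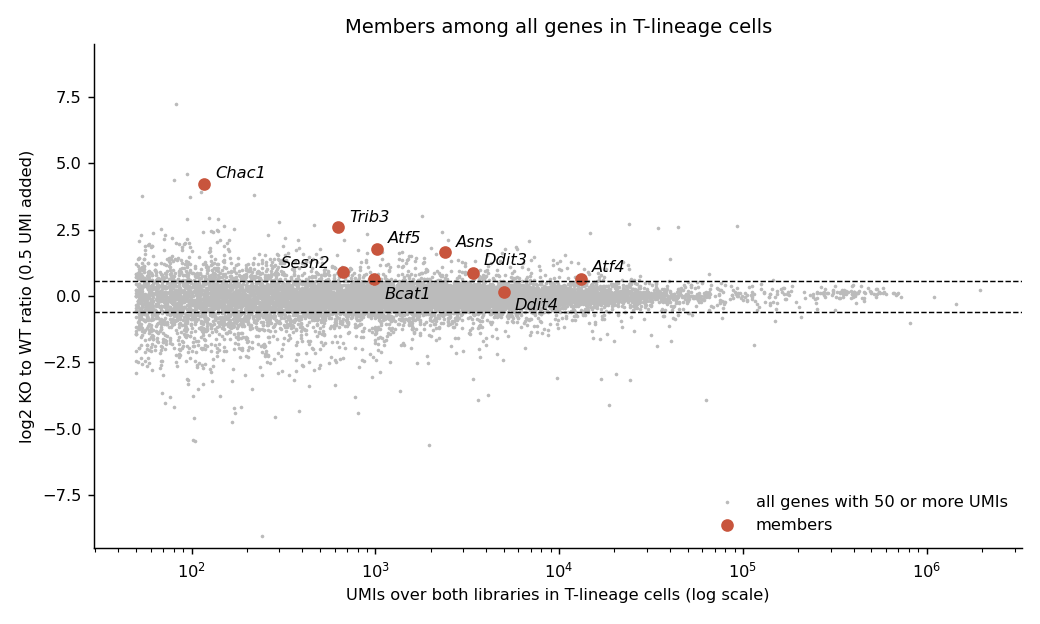
Each grey point is a gene with 50 or more UMIs in T-lineage cells, placed by its UMIs over both libraries (log scale) and its log2 KO to WT ratio, and red points are members. Dashed lines mark 1.5-fold. Of the 9 members shown, 8 lie above the upper line and Ddit4 lies between the lines.

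Trib3 encodes a pseudokinase that ATF4 and CHOP induce and that feeds back on ATF4 and on Akt signaling. Its gene lies on chromosome 2 (152337422 to 152344032, minus strand, GRCm38). It had 83 UMIs in the WT T-lineage cells (1.71 CPM, 1.36 to 2.12) and 547 in the KO cells (10.5 CPM, 9.59 to 11.4). This is 6.10-fold (4.83 to 7.78) more in KO, and the ratio ranked 19 of 12212 genes. The Trib3 UMIs were spread over many cells: over all kept cells, 588 UMIs of KO came from 411 cells, of which 75 held 2 or more and the highest held 11. In WT, 89 UMIs came from 83 cells.

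Chac1 encodes an enzyme that degrades glutathione and is a known target of ATF4 and CHOP (chromosome 2, 119351229 to 119354381, plus strand). It had 5 UMIs in the WT T-lineage cells (0.103 CPM, 0.0335 to 0.241) and 112 in the KO cells (2.14 CPM, 1.76 to 2.57), a ratio of 20.7 (8.62 to 65.1). Its ratio ranked 4 of 12212 genes. The WT level rests on so few transcripts that the interval spans most of an order of magnitude. Chac1 was at 10.7 CPM (5.12 to 19.7) in WT and 22.9 CPM (12.5 to 38.4) in KO neutrophil-like cells, more than in any T-lineage cluster. When T-lineage cells were picked by their own marker UMIs in place of clusters, the WT cells held 19 Chac1 UMIs and the ratio was 6.40, and with the mean of single-cell CPM it was 7.90.

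The amino acid genes among the members follow. Asns, which makes asparagine from aspartate and glutamine (chromosome 6, 7675169 to 7693254, minus strand), was at 11.2 CPM (10.3 to 12.2) in WT T-lineage cells and 35.3 CPM (33.7 to 37.0) in KO, a ratio of 3.15 (2.86 to 3.47). Bcat1 encodes the cytosolic branched-chain aminotransferase (chromosome 6, 144993835 to 145076184, minus strand), and was at 7.54 and 11.9 CPM, a ratio of 1.57 (1.38 to 1.80) that lies near the 1.5-fold limit. Slc7a11 encodes the cystine-glutamate antiporter (chromosome 3, 49892526 to 50443614, minus strand). It was close to absent from T-lineage cells, with 5 UMIs in WT and 28 in KO, or 0.103 and 0.535 CPM, and a ratio of 5.18 (1.98 to 17.2) that was 1.57 (1.03 to 2.43) with T-lineage cells picked by marker UMIs.

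The transcription factors came next. Atf4 itself (chromosome 15, 80255184 to 80257541, plus strand) was the most abundant member, at 101 CPM (98.0 to 104) in WT and 158 CPM (155 to 162) in KO, a ratio of 1.57 (1.51 to 1.63). Atf5, a relative of ATF4 that is also controlled at translation (chromosome 7, 44812256 to 44816658, minus strand), was at 4.48 CPM (3.90 to 5.12) and 15.4 CPM (14.4 to 16.5), a ratio of 3.45 (2.96 to 4.02). Ddit3 encodes CHOP, which acts downstream of ATF4 and is known for driving death of stressed cells (chromosome 10, 127290774 to 127296288, plus strand), and was at 23.4 and 43.2 CPM, a ratio of 1.84 (1.72 to 1.98). The ratio of Atf5 exceeded those of Atf4 and Ddit3, and its interval did not reach theirs. Ddit3 is listed as a pair of overlapping gene models, which were summed, and 1 of them held all 4380 UMIs of the deposited cells. Atf5 and Ddit3 also overlap genes on the opposite strand (Nup62 and Il4i1, and Gm4189 and Mars). Among the other members, Slc7a11 (Gm37854) and Bcat1 (Gm26666 and Gm15687) do so too, and Sesn2 overlaps Gm12981 on the same strand. The part of these overlaps in the levels was not tested.

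The remaining members encode inhibitors of mTORC1, the kinase that couples growth to amino acids. Sesn2, a leucine sensor (chromosome 4, 132492032 to 132510501, minus strand), was at 4.52 CPM in WT and 8.52 CPM in KO T-lineage cells, a ratio of 1.88 (1.60 to 2.23). Ddit4, also known as REDD1 (chromosome 10, 59949669 to 59951834, minus strand), was at 47.0 and 52.5 CPM, a ratio of 1.12 (1.06 to 1.18), and 23.9% of genes had a higher ratio. Its direction was not stable, since the ratio was 0.920 with the mean of single-cell CPM and 0.990 (0.860 to 1.14) after each cell was thinned to 1000 UMIs.

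**Figure D2:**
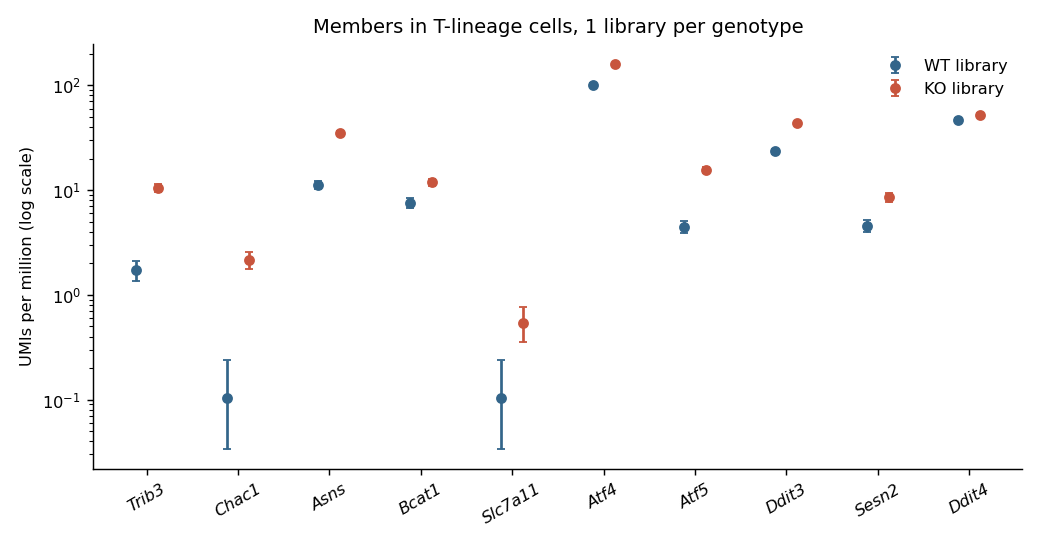
Level of each member in T-lineage cells in CPM on a log axis, with the WT library in blue and the KO library in red; bars are exact Poisson 95% intervals. The intervals of the libraries do not overlap for any of the 10 members, and the points of Ddit4, at 47.0 and 52.5, are the closest together.

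The levels were then followed through the T cell states, which were named from marker genes after clustering without the members. The resting Treg-like class (2780 WT and 5664 KO cells) joins cluster 1 and cluster 5, and cluster 5, led by the interferon-induced genes Ifit3 and Ifit1, held 117 WT and 1341 KO cells. The activated Treg-like class (657 and 1069 cells) was led by Lad1, Penk, Phlda3 and Tnfrsf9 among others, and the cycling T class (594 and 778 cells) by histone genes. The effector Treg-like class held 1641 WT cells and only 72 KO cells. Cluster 8 (665 and 392 cells), which had effector and mitotic genes together, and the shallow cluster 2 (992 and 3402 cells), whose leading genes were Mpo and hemoglobin genes, were left without a name. So were cluster 7 (20 and 1312 cells), led by the neutrophil genes Ngp, Camp and Lcn2, cluster 10 (120 and 289 cells), led by Hspa1b and Hspa1a, and cluster 15 (44 and 8 cells), led by the macrophage genes C1qb, C1qc and C1qa. With 1 library per genotype, a cluster held mostly by 1 library may be that library and not a state.

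In the KO library Trib3 differed between the states. It was at 5.16 CPM (4.27 to 6.18) in resting Treg-like cells, 10.2 CPM (7.82 to 13.2) in cluster 2, 13.9 CPM (10.1 to 18.6) in cluster 8, 15.3 CPM (12.8 to 18.2) in cycling T cells, 18.0 CPM (15.3 to 21.0) in activated Treg-like cells and 24.9 CPM (12.9 to 43.5) in the few effector Treg-like cells. Among these 6 groups the interval of the resting cells lay below all others, while each further neighbor overlapped the next. In the WT library the order was another one: 0.708 CPM (0.193 to 1.81) in activated, 1.12 CPM (0.0283 to 6.23) in cluster 2, 1.42 CPM (0.812 to 2.31) in resting, 1.62 CPM (0.925 to 2.63) in cycling, 2.20 CPM (1.44 to 3.22) in effector cells and 2.35 CPM (1.44 to 3.63) in cluster 8, and all of these intervals overlapped.

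The KO to WT ratio of Trib3 was thus 3.63 (2.15 to 6.56) in resting, 9.45 (5.60 to 17.0) in cycling and 25.4 (9.71 to 94.2) in activated Treg-like cells, the last from 4 WT and 159 KO UMIs. The ratio in activated cells was 6.98 times that in resting cells, with a counting interval of 2.28 to 21.4. It covers the UMI sums of 1 library each, and whether it would hold between mice was not tested. The ratios in activated cells were also not run under the processing alternatives given at the end.

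**Figure D3:**
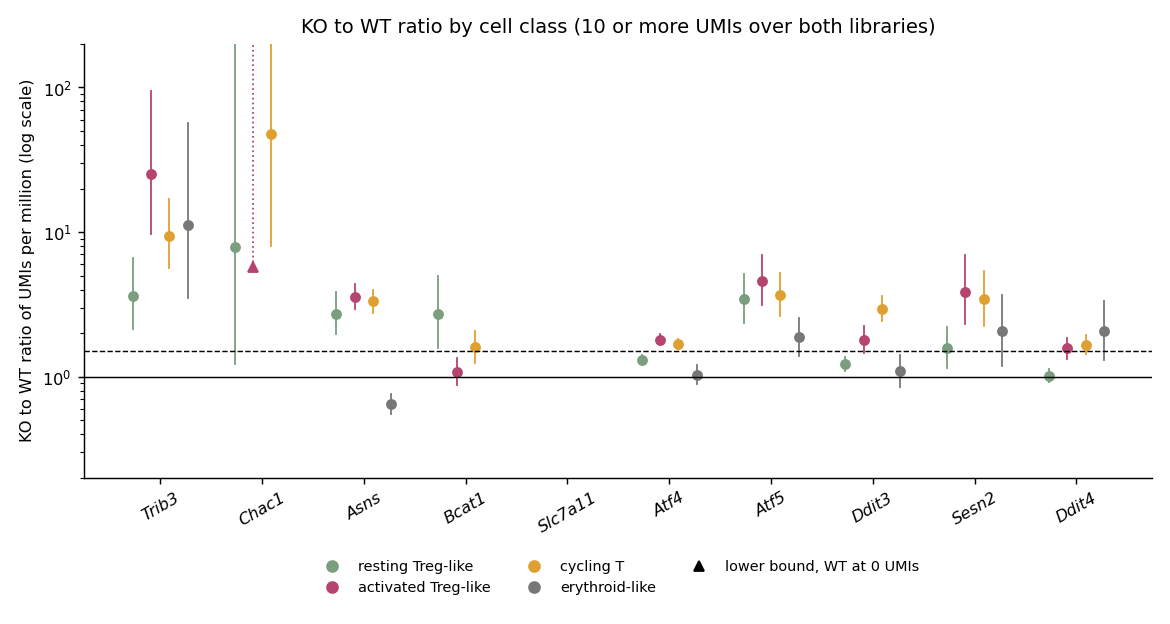
KO to WT ratio of CPM on a log axis for each member with 10 or more UMIs over both libraries, in resting Treg-like, activated Treg-like, cycling T and erythroid-like cells; bars are exact 95% intervals, the solid line marks a ratio of 1 and the dashed line 1.5-fold. Trib3 in activated Treg-like cells stands at 25.4, and Asns in erythroid-like cells, at 0.648, is the only one of the points in these 4 classes whose interval lies below 1.

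In resting Treg-like cells, 8 members had at least 50 UMIs and 5 of them (Trib3, Asns, Atf5, Sesn2 and Bcat1) were 1.5-fold or more higher in KO, against 2.65% of 10570 genes. The KO to WT ratios were 2.72 (1.97 to 3.84) for Asns, 3.43 (2.36 to 5.14) for Atf5 and 2.71 (1.58 to 4.94) for Bcat1. That of Sesn2 was 1.58 (1.14 to 2.21). Atf4, Ddit3 and Ddit4 stayed under the limit, with ratios of 1.31 (1.22 to 1.40), 1.22 (1.09 to 1.37) and 1.01 (0.911 to 1.12). In cluster 1 alone, where the libraries are more even (2663 and 4323 cells), the ratio of Trib3 was 3.77 (2.17 to 7.03) and that of Asns 2.81 (2.01 to 4.01). With a finer clustering (resolution 1.0) the resting class shrank to 1018 WT and 2943 KO cells and the ratio of Asns was 1.47 (0.906 to 2.48).

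In activated Treg-like cells, 8 members had at least 50 UMIs and 7 of them were 1.5-fold or more higher in KO, against 4.83% of 9178 genes. Asns reached 78.1 CPM (72.4 to 84.2) in KO against 21.9 CPM (18.2 to 26.2) in WT, a ratio of 3.56 (2.94 to 4.35). The ratio of Atf5 was 4.59 (3.13 to 6.97), that of Sesn2 3.87 (2.30 to 6.89), that of Atf4 1.80 (1.64 to 1.98), that of Ddit3 1.80 (1.46 to 2.24) and that of Ddit4 1.57 (1.33 to 1.85). Chac1 had 0 UMIs in WT and 27 in KO, at least 5.74-fold higher against a floor of 3 UMIs in the WT sum. The erythroid markers summed to 380 and 690 CPM in these cells and to 517 and 915 CPM in the resting cells. Bcat1, by contrast, was at 24.4 CPM in WT and 26.3 CPM in KO, a ratio of 1.08 (0.869 to 1.34).

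Bcat1 differed more between the states than between the genotypes. In the WT library it was 17.2-fold (10.2 to 30.9) higher in activated than in resting cells, and in KO 6.84-fold (5.33 to 8.84) higher. Asns did so as well, at 5.62-fold (3.95 to 8.11) in WT and 7.35-fold (6.35 to 8.55) in KO. Trib3 differed from both, with an activated to resting ratio of 0.498 (0.121 to 1.54) for the WT library and 3.48 (2.73 to 4.45) for the KO library. Atf4 was level in WT, at 1.03 (0.930 to 1.14), and 1.41-fold higher in activated cells in KO. The KO to WT ratio of Bcat1 was lower in activated than in resting cells, by a factor of 0.398 (0.224 to 0.705), and those of Sesn2, Ddit4, Ddit3 and Atf4 were higher, by factors of 2.45 (1.34 to 4.49), 1.55 (1.28 to 1.88), 1.47 (1.16 to 1.87) and 1.38 (1.23 to 1.54). For Asns and Atf5 the factors were 1.31 (0.901 to 1.90) and 1.34 (0.786 to 2.28), so that a difference between the states was not detectable at this depth.

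In cycling T cells all 8 members with at least 50 UMIs were 1.5-fold or more higher in KO, against 8.41% of 9488 genes. Ddit3 was at 15.2 CPM in WT and 44.7 CPM in KO, a ratio of 2.95 (2.43 to 3.58). That was 2.41 times its ratio in resting cells, with a lower bound of 1.93. The same factor was 2.60 (1.25 to 5.44) for Trib3 and 2.17 (1.28 to 3.68) for Sesn2. It was 1.64 (1.37 to 1.97) for Ddit4 and 1.29 (1.16 to 1.43) for Atf4. For Asns, Atf5 and Bcat1 it was 1.22, 1.06 and 0.592, with intervals that include 1. In WT the cycling cells held less Ddit3 than the resting cells, by a factor of 0.411 (0.339 to 0.496), whereas in KO the factor was 0.989 (0.876 to 1.11). Chac1 had 1 UMI in WT and 40 in KO cycling cells, a ratio of 47.3 (8.01 to 1912). The ratios of Asns, Atf5, Sesn2, Atf4, Ddit4 and Bcat1 were 3.31, 3.64, 3.42, 1.69, 1.66 and 1.60. The median cell held 15066 UMIs in WT and 9193 in KO, and the erythroid markers summed to 463 and 1417 CPM; the part of either in these ratios was not tested.

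**Figure D4:**
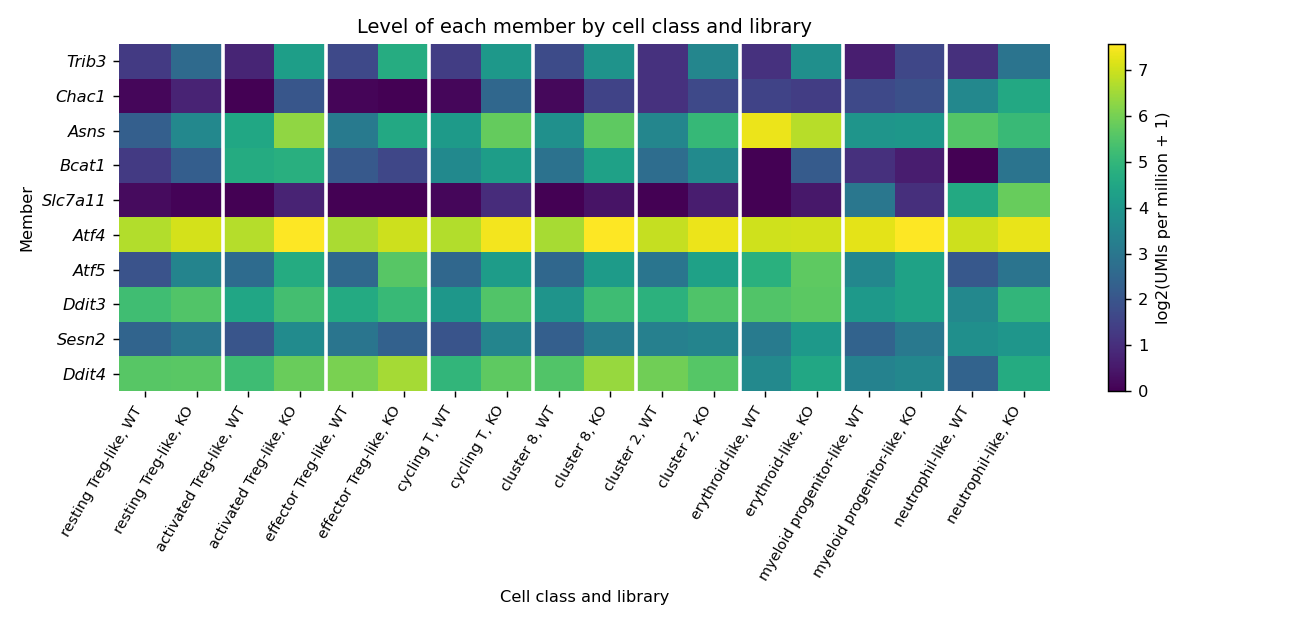
Color gives log2(CPM + 1) of each member in each cell class, with WT and KO side by side within each pair of columns. Asns is brightest in the erythroid-like pair, Slc7a11 in the neutrophil-like pair, and Trib3 is brighter in the KO column of every pair shown.

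Among the other lineages in the sort, Asns, Atf5, Slc7a11 and Chac1 reached higher levels than in T-lineage cells. Ddit4 and Bcat1 went the other way. Over the other lineages Ddit4 was at 9.71 CPM in WT and 18.7 CPM in KO, against 47.0 and 52.5 CPM in T-lineage cells. Bcat1 was at 0.694 and 2.64 CPM, against 7.54 and 11.9 CPM. Atf5 was at 27.3 CPM in WT and 51.1 CPM in KO erythroid-like cells, against 4.48 and 15.4 CPM in T-lineage cells. Erythroid-like cells (285 WT and 541 KO cells) had the highest Asns levels of any named class, at 164 CPM (149 to 181) in WT and 107 CPM (94.3 to 120) in KO. Here the KO level was the lower one, with a ratio of 0.648 (0.555 to 0.756), opposite to that in T-lineage cells. The class joins 2 clusters that differ in Asns. In cluster 9 (200 WT and 365 KO cells) Asns was at 190 and 146 CPM, a ratio of 0.769 (0.655 to 0.902), and in cluster 11 (85 and 176 cells) at 19.8 and 29.1 CPM, a ratio of 1.47 (0.641 to 3.76), with an interval that includes 1. Of all 6414 genes with at least 50 UMIs in these cells, 7.00% were 1.5-fold or more higher in KO, and the members counted so were 3 of 6 (Atf5, Sesn2 and Ddit4), while Asns was lower by more than 1.5-fold. By cluster, the ratio of Atf5 was 1.21 (0.781 to 1.86) in cluster 9 and 1.63 (1.04 to 2.66) in cluster 11, that of Ddit4 2.64 (1.56 to 4.57) and 0.938 (0.326 to 3.05), and that of Sesn2 1.70 (0.894 to 3.29) and 3.99 (0.946 to 35.6), so that the values of Atf5 and Ddit4 did not pass 1.5-fold in each cluster. The median log2 ratio of all genes in the class was -0.29. The erythroid markers, which include the hemoglobin genes, took more of the UMIs in KO, as given above, and their part in the lower Asns level was not tested. Trib3 had 3 UMIs in WT and 32 in KO erythroid-like cells, or 1.12 and 12.6 CPM, a ratio of 11.2 (3.51 to 57.2). The T-lineage markers summed to 1015 CPM in the WT and 1948 CPM in the KO erythroid-like cells, against 7343 and 6828 CPM in T-lineage cells, and how far free or shared T cell RNA carried the Trib3 UMIs was not tested.

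Slc7a11 was highest in neutrophil-like cells among the named classes. It was at 23.5 CPM (14.7 to 35.6) in WT and 55.5 CPM (38.5 to 77.6) in KO neutrophil-like cells, from 22 and 34 UMIs, a ratio of 2.36 (1.34 to 4.24). Myeloid progenitor-like cells went the other way, with 13 UMIs in WT and 2 in KO, a ratio of 0.148 (0.0162 to 0.654). Over all kept cells the ratio of Slc7a11 was 1.53 (1.01 to 2.33), a sum over classes with ratios on opposite sides of 1. Over all kept cells, 9 of the 10 members were 1.5-fold or more higher in KO, against 4.61% of 12727 genes.

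The share of cells with a UMI was compared after each cell was thinned to 2000 UMIs, which left out 1578 WT and 5072 KO T-lineage cells. Trib3 was then seen in 21 of 5935 WT cells (0.354%, Clopper-Pearson interval 0.219 to 0.540) and 117 of 7914 KO cells (1.48%, 1.22 to 1.77). Without thinning the shares were 1.02% and 2.89%. In activated Treg-like cells it was seen in 0 of 626 WT cells and in 25 of 978 KO cells (2.56%, 1.66 to 3.75). A count of 0 in these WT cells allows a share at this thinned depth of up to 0.479% by a floor of 3 cells, or 0.588% by the Clopper-Pearson bound. Without thinning, 4 of 657 WT cells (0.609%) and 79 of 1069 KO cells (7.39%) held a Trib3 UMI. Asns was seen in 3.67% (2.34 to 5.46) of WT and 9.41% (7.65 to 11.4) of KO activated cells. None of the classes here is known to lack these genes, so a background share from free RNA was not measured. In erythroid-like cells, at the same thinned depth, the Trib3 shares were 0.526% (0.0133 to 2.90) in WT and 2.85% (1.31 to 5.34) in KO, from medians of 4462 and 2379 UMIs before thinning.

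Levels of the other members were then compared between KO cells with and without Trib3. The 117 KO T-lineage cells with a Trib3 UMI after thinning to 2000 UMIs had higher levels of Atf5 (77.0 against 11.5 CPM, ratio 6.67, 3.86 to 10.8), Asns (103 against 22.4 CPM, ratio 4.59, 2.90 to 6.94), Bcat1 (ratio 4.10, 1.73 to 8.33), Sesn2 (ratio 3.64, 1.31 to 8.17) and Ddit3 (ratio 2.82, 1.86 to 4.11) than the 7797 cells without. For Atf4 the ratio was 1.54 (1.15 to 2.03) and for Ddit4 1.20 (0.652 to 2.02). Chac1 had 0 UMIs in the cells with Trib3, too few for a comparison. After thinning to 1000 UMIs the ratios of Asns and Atf5 were 1.73 (0.469 to 4.49) and 3.26 (0.877 to 8.51), with intervals that include 1. Those of Bcat1 and Sesn2 were then 1.31 (0.0328 to 7.47) and 1.41 (0.0354 to 8.07), from 1 UMI each in the cells with Trib3. All these cells come from 1 library, and cells of the activated state hold more of both Trib3 and Asns, so the comparison describes this library and does not separate states from single cells. The 5 other genes with the highest ratio were Try5, Nupr1, Fam229b, Ermn and Tmem67, each from 3 to 9 UMIs, and none of them was among the 5 highest at 1000 UMIs. Nupr1 encodes a stress-induced cofactor of the same pathway and had a ratio of 24.0 (9.86 to 53.2) from 9 UMIs.

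Over 25 profiles, each a cell class in 1 library with at least 100000 UMIs, the members resembled each other to different degrees. The Pearson correlation of log2(CPM + 1) with the mean of the other members was 0.62 for Trib3, 0.53 for Chac1 and 0.51 for Asns, and 0.14 for Slc7a11 and 0.07 for Ddit4. The profiles share their libraries, so the values are descriptions. Among 10232 genes that are no members, those most like the mean of the members were Phlda3 (r = 0.81), an Akt inhibitor and p53 target, Tnni1 (0.69), Lif (0.66), Iigp1 (0.65) and Mbnl3 (0.64).

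The other genes of the pathway were read from lists of known pathway genes, chosen with earlier results of these libraries known. Each count in T-lineage cells below is to be read against all genes there, of which 6.21% were 1.5-fold or more higher in KO and 12.3% lower, so that in a short list 0 or 1 gene past the limit is near that share. Of 7 kinase and activator genes upstream of ATF4, 0 were 1.5-fold or more higher and 1, Eif2ak3, was lower. Eif2ak3 encodes PERK, the kinase of the endoplasmic reticulum, and was at 5.37 CPM in WT and 3.23 CPM in KO, a ratio of 0.602 (0.493 to 0.733). The amino acid sensor Eif2ak4 (GCN2) had a ratio of 0.812 (0.700 to 0.943), and the mitochondrial relay genes Oma1 and Dele1 had 0.778 (0.702 to 0.862) and 1.15 (1.05 to 1.25). Of the 8 eIF2 and eIF2B subunit genes none passed 1.5-fold in either direction. The lowest was Eif2s3x, an X-linked gene with a ratio of 0.668 (0.622 to 0.718), and the X-linked Xist was at 216 CPM in WT and 566 CPM in KO and the Y-linked Ddx3y at 21.8 and 14.7 CPM, so that RNA of both sexes was present in each library. The phosphatase subunit Ppp1r15a (GADD34), which ATF4 and CHOP induce to restore translation, had a ratio of 1.36 (1.32 to 1.40), with 0.978 (0.938 to 1.02) in resting and 1.81 (1.65 to 1.99) in cycling cells. Of 5 counted partner factors of ATF4, 0 passed 1.5-fold upward and 1, Jdp2, downward, at 0.461 (0.365 to 0.579). Cebpb and Cebpg had ratios of 0.854 (0.785 to 0.929) and 0.872 (0.804 to 0.946), while Nfe2l2 had one of 1.12 (1.04 to 1.21) and Atf3, named after its values were seen, one of 1.42 from 60 and 92 UMIs.

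Lists of amino acid metabolism lie downstream. Of 10 counted genes of serine, one-carbon and proline synthesis, 3 passed 1.5-fold upward and 0 downward, with a median log2 ratio of 0.45. Shmt2, the mitochondrial enzyme that splits serine, was at 38.2 CPM in WT and 72.8 CPM in KO, a ratio of 1.91 (1.80 to 2.02). Mthfd2 and Phgdh, of the same route, had ratios of 1.45 (1.39 to 1.51) and 1.35 (1.32 to 1.39) in all T-lineage cells, and 1.93 (1.74 to 2.14) and 1.90 (1.79 to 2.03) in activated cells. Of 9 amino acid transporters, 4 passed 1.5-fold upward and 0 downward, with a median of 0.55. Slc7a5, the light chain of the large neutral amino acid exchanger, had a ratio of 2.12 (1.94 to 2.32), whereas the glutamine transporter Slc38a1 had one of 0.873 (0.842 to 0.905). The other 3 counted transporters that passed are Slc7a3, Slc1a4 and Slc6a9. Slc7a3, chosen here after its values were seen, had 0 UMIs in WT and 82 in KO T-lineage cells. This is 25.3-fold higher against a floor of 3 UMIs, a value that leaves out the counting error of the KO UMIs.

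The list of cytosolic aminoacyl-tRNA synthetases, enzymes that charge tRNAs, also holds Xpot, which is no synthetase. Of its 20 genes, 2 (against 6.21% of all genes) passed 1.5-fold upward, and the median was 0.16. These were Cars at 1.85 (1.69 to 2.02) and Yars at 1.57 (1.44 to 1.71). In activated cells, where 4.83% of all genes passed, Aars and Gars did so as well. Of 14 other ATF4-linked genes, 3 passed upward and 0 downward: Nupr1 with 13 UMIs in WT and 206 in KO (ratio 14.7, 8.39 to 28.0), Bbc3, the gene of the death factor PUMA, at 2.64 (2.35 to 2.97), and Eif4ebp1, a brake on translation initiation, at 1.88 (1.74 to 2.03). Bbc3 is also a p53 target.

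Neighboring stress lists were read as well. Of 20 endoplasmic reticulum chaperone and sensor genes, which the unfolded protein response raises, 0 passed upward (against 6.21% of all genes) and 1 downward (against 12.3%) in T-lineage cells, with a median log2 ratio of -0.05. The chaperone Hyou1 had a ratio of 0.697 (0.619 to 0.784), and Herpud1 one of 1.23 (1.16 to 1.30). Herpud1 was past 1.5-fold in activated cells, at 1.82 (1.54 to 2.15), and in cycling cells, at 1.61 (1.40 to 1.85). Of 7 mitochondrial heat-shock and protease genes, 0 passed in either direction, with a median of 0.12. Of 18 counted p53 target genes, 7 passed upward and 0 downward, with a median of 0.46. Phlda3 had a ratio of 8.18 (7.01 to 9.58) and Cdkn1a, the gene of the cell cycle inhibitor p21, one of 5.38 (4.79 to 6.05). Sesn2 among the members is also known as a p53 target, and which input set its level was not tested.

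**Figure D5:**
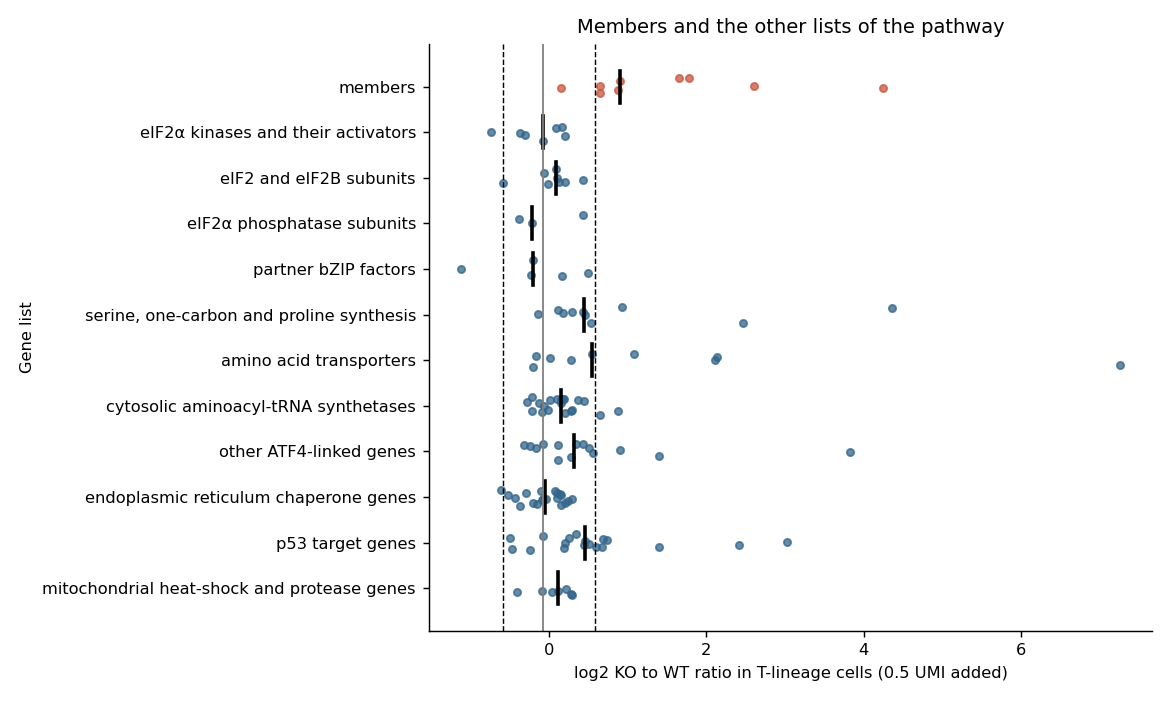
Each point is a gene with 50 or more UMIs in T-lineage cells, by list, on the log2 scale of its KO to WT ratio; black ticks are list medians, the grey line the median of all genes and dashed lines 1.5-fold. The members have a median of 0.91 over the 9 counted genes, and the eIF2α kinase and endoplasmic reticulum chaperone lists have medians of -0.07 and -0.05.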

How the data were processed

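Deposited values are UMI counts from Cell Ranger 5.0.1 and mm10, as named in the submitters' processing notes, with no further normalization by the authors. Deposited gene and barcode names were used as they stand. The filters required 300 genes and allowed 5% mitochondrial UMIs. Doublets were not removed, since Scrublet (scanpy 1.11.5) called 0 in either library. Removal of the highest scores was an alternative. The study removed potential doublets from both libraries with DoubletFinder, so doublets may remain among the cells used here. Cells were scaled to 10000 UMIs, and 2000 variable genes, without the pathway genes, gave 30 principal components, a graph of 20 neighbors and 16 Leiden clusters (resolution 0.5, igraph 0.11.9, scikit-learn 1.9.0). A cluster was T-lineage with at least 50% of the highest cluster's mean CPM of T cell genes, and was named when 67% and at least 3 of a list's markers were raised 1.5-fold, with 1 or more among the 10 leading genes. T-lineage clusters that passed for several states, or for another lineage, got no name. That naming rule was set after the clusters had been seen.

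UMIs were summed per library and class. Ratios carry exact conditional binomial intervals, sums exact Poisson intervals, shares Clopper-Pearson intervals, and factors between ratios normal intervals on the log scale, all at 95% and for counting error only. For log2 ratios 0.5 UMI was added. For the choice by marker UMIs, T-lineage cells held 2 or more UMIs of T cell markers and under 1% hemoglobin UMIs. Without the mitochondrial filter, added cells joined the cluster whose mean profile they correlated with most. Genes were counted with 50 UMIs over both libraries. Named were all 10 members, Zfp335, up to 4 genes of each list with the largest absolute log2 ratio in T-lineage cells among those with 200 UMIs, and 5 genes each by likeness and by co-detection. The members and lists were chosen with earlier results of these data known. The interval script was tested on simulated data. Symbols Gcn1l1 and Mars1 had no match and were not used.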

Additional observations from a re-analysis of the deposited data

Results flagged for a closer look

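Asns was lower in KO than in WT erythroid-like cells (ratio 0.648, 0.555 to 0.756) and higher in KO T-lineage cells (3.15, 2.86 to 3.47). The ratio in erythroid-like cells was 0.206 times (0.172 to 0.247) that in T-lineage cells, an interval for counting error in 1 library per genotype. The erythroid-like class joins cluster 9, with a ratio of 0.769 (0.655 to 0.902), and cluster 11, with a ratio of 1.47 (0.641 to 3.76). Whether the difference holds between mice was not tested.

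Slc7a11 was lower in KO myeloid progenitor-like cells (ratio 0.148, 0.0162 to 0.654, from 13 and 2 UMIs) and higher in KO neutrophil-like cells (2.36, 1.34 to 4.24), and this difference was not tested either.

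Cells left out by the filters, 6471 of WT and 4367 of KO, were used in no comparison above. Trib3 was at 1.54 CPM (0.882 to 2.51) in those of WT and 10.9 CPM (8.67 to 13.4) in those of KO, a ratio of 7.03 (4.09 to 12.9).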

How the results depend on the processing

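The median log2 ratio of the 10 members kept its sign under every alternative run, at 0.83 to 0.93 over all kept cells, 0.70 to 1.34 in T-lineage cells and 0.62 to 1.10 in resting Treg-like cells. After thinning to 1000 UMIs, which keeps fewer transcripts, it was 0.70 in T-lineage cells, and with T-lineage cells picked by marker UMIs it was 0.87. Thinning brought the members past 1.5-fold to 5 over all kept cells, 4 in T-lineage cells and 3 in resting cells. A 2-fold limit left 3 over all kept cells and 4 in T-lineage cells. In resting cells a finer clustering (resolution 1.0) gave 3 and a minimum of 200 UMIs gave 3. Ddit4 changed direction: its ratio was 0.951 over all kept cells and 0.920 in T-lineage cells with the mean of single-cell CPM, and 0.990 in T-lineage cells after thinning. The share of T-lineage cells with a Trib3 UMI was 0.140% in WT and 0.782% in KO after thinning to 1000 UMIs, and 1.02% and 2.89% without thinning. Leaving out the barcodes shared by the libraries, removing the highest doublet scores, dropping the mitochondrial filter or leaving out the clusters without a name (an alternative chosen after the data had been seen) moved no median or count beyond its limit. No paired analysis was possible because each genotype has 1 library. Depth limits the ratios of Chac1 and Slc7a11, with 5 WT UMIs each in T-lineage cells. Pooled mice, their mix of sexes, library and genotype cannot be told apart.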
